A study of Mus musculus with 16 samples.

Results

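The comparison described here is the response to DDC of liver cells that were sorted as negative for both MIC1-1C3 (M), a surface antigen of bile duct cells, and CD133, the product of Prom1. These M-133- cells came from c129/S3 mice on a Purina diet. In the treated group the diet held 0.1% DDC by weight for 2 weeks, and in the untreated group it held none. The nonparenchymal fraction of dissociated livers, with erythrocytes lysed, was sorted by flow cytometry. There were 4 M-133- samples from DDC-fed mice and 2 from untreated mice, so 6 of the 14 samples of the study. They were chosen by their labels alone. They took up 7 of the 16 arrays, since untreated sample 2 was hybridised in 2 repeat arrays, which were averaged. The rest of the study is M+133+ cells, positive for both antigens, from 4 DDC-fed and 4 untreated samples. The series calls its samples biological replicates, but whether a sample was 1 mouse or several is not given in the sources used here.

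DDC (3,5-diethoxycarbonyl-1,4-dihydrocollidine) inhibits ferrochelatase, the enzyme that inserts iron into protoporphyrin to make heme. Protoporphyrin then builds up, plugs the small bile ducts and injures hepatocytes, and the portal tracts answer with a ductular reaction, a spread of duct-like cells with inflammation and fibrosis. Feeding of DDC to mice is also known for clumps of keratin 8 and keratin 18 in hepatocytes, called Mallory-Denk bodies. A fraction depleted of duct cells holds what is left of the nonparenchymal liver. That includes sinusoidal and vascular endothelium, the vitamin A-storing stellate cells that turn into matrix-making myofibroblasts after injury, Kupffer cells and other leukocytes, and the hepatocytes that stay in the fraction. No gate beside these antigens is named in the labels.

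Signal is given as a level, the log2 of an array's processed intensity minus the log2 of that array's 75th percentile, so a level of 0 is the 75th percentile and levels near -8 are at the floor of the array. A difference is the mean level after DDC minus the mean level without it. The 75th percentile was 1418 to 2111 intensity units on the DDC arrays and 603 to 2081 on the untreated arrays. The scanner software called 60.3% to 73.5% of probes well above background on the DDC arrays and 65.6% to 75.9% on the untreated ones. Correlation between arrays of different samples, across genes, was 0.830 to 0.851 within the DDC group, 0.814 to 0.869 within the untreated group and 0.762 to 0.837 between the groups. The repeat arrays of untreated sample 2 correlated at 0.833, no better than different samples. These are correlations across genes, which do not replicate each other. Precision is limited by how few arrays there are, above all by the 2 untreated samples.

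The sort label was checked on Prom1, which encodes CD133. Its level was -7.32, -3.52, -6.43 and -8.63 in the 4 DDC samples, against -7.74 and -8.35 in the untreated samples. It was well above background on 1 of 4 DDC arrays, that of sample 2, and on none of the 3 untreated arrays. In M+133+ cells its mean level was 1.51 after DDC and 1.58 in untreated cells. The difference in M-133- cells, 1.57 with an SE of 1.08, did not pass the test (limma, adjusted p = 0.615). The defining transcripts of hepatocytes were abundant in both groups. Albumin (Alb) stood at 6.82, 6.22, 7.38 and 6.94 in the DDC samples and at 8.38 and 7.03 in the untreated samples.

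Of 23309 genes tested, 237 differed between M-133- cells of DDC-fed and untreated mice at an adjusted p under 0.05 (limma, Benjamini-Hochberg), which is 1.02% of the genes. DDC raised 143 of them (0.613%) and lowered 94 (0.403%). Each count of called genes in a list below is to be read beside these shares. At an unadjusted p under 0.05 there were 2993 genes. The median difference over all genes was -0.36, so a list is described beside that value and not beside 0. It ran from -0.76 to 0.06 over the alternative settings, lowest under normexp background correction and highest under quantile normalization. None of the 237 genes had overlapping groups. Over all genes, every DDC sample lay above both untreated samples for 7.12% and below both for 12.7%.

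The increases and the decreases differed in kind. Genes known only by a clone or accession number made up 11 of the 143 increases (7.69%) and 41 of the 94 decreases (43.6%), against 27.8% of all genes tested. Of the increases, 80 were well above background on all 7 arrays and 18 on no untreated array. Of the decreases, 33 were well above background on all 7 arrays and 26 on no DDC array. Both untreated samples carry weight in these calls. Without untreated sample 1 there were 73 calls, 61 of them higher, and without untreated sample 2 there were 241, of which 77 were higher. A group of 32 genes stayed called whichever of the 6 samples was left out. Under all 19 alternative analyses 13 genes stayed called. They were Sprr1a, Lcn2, Hs3st3a1, Spp1, Ifi27l2b, Lama1, Osbpl3, Plet1, Cdca3, Krt8 and S100a11, which were higher after DDC, and Plxdc1 and AK038029, which were lower.

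**Figure D1:**
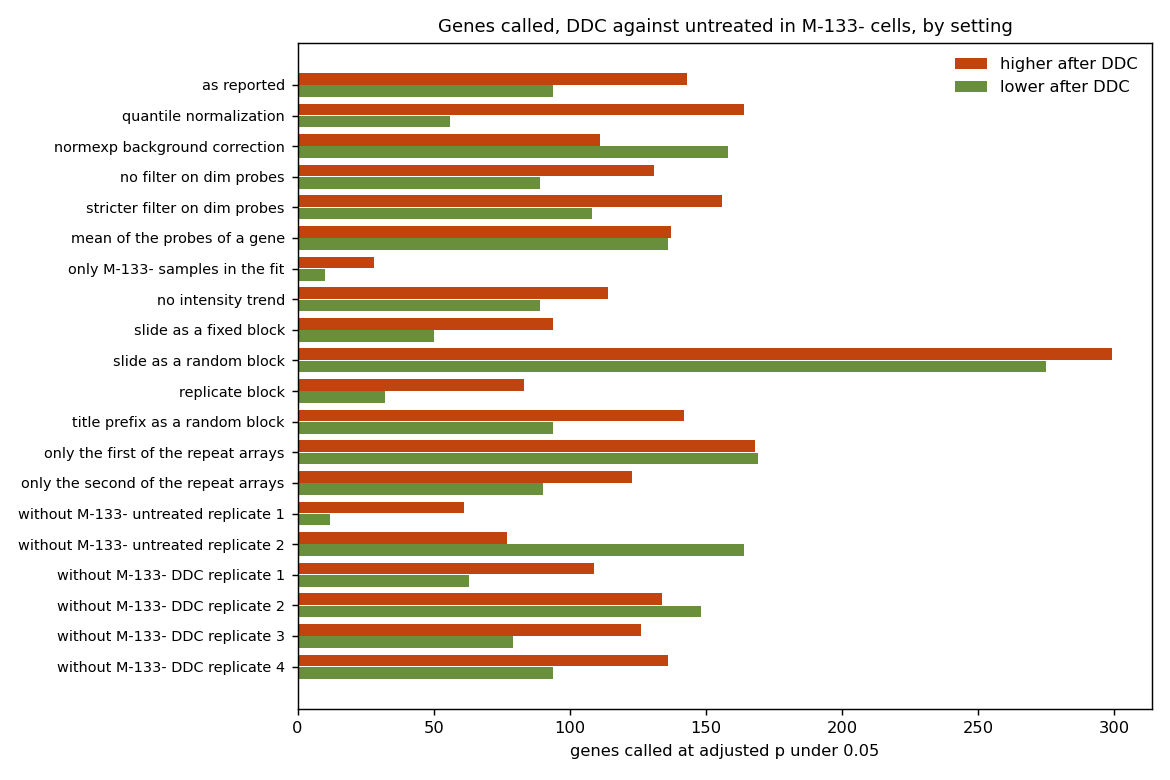
Genes called in M-133- cells (DDC against untreated, adjusted p under 0.05) as reported and under each of 19 alternatives, with bars for genes higher and lower after DDC. The total runs from 38 with only the M-133- samples fitted to 574 with slide as a random block, and the split between higher and lower calls changes with the normalization and with which untreated sample is left out.

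Several epithelial genes were among the increases, and no list of such genes beyond the bile duct list was counted. Sprr1a, a precursor of the cornified envelope made by stressed epithelia, had levels of 3.61, 1.55, 3.69 and 2.07 in the DDC samples, against -7.64 and -7.55 in the untreated samples. It was well above background on every DDC array and on no untreated array, which put it at least 415-fold higher (limma, adjusted p = 8.52e-06). Such a bound sets the DDC mean against the dimmest signal still called well above background on each untreated array. Plet1, a membrane-bound epithelial protein, had 4.09, 2.60, 3.36 and 3.63 after DDC, and -4.04 and -4.77 without it. Its difference of 7.83 (SE 0.40) had the smallest adjusted p of the genes named here, 1.48e-07 by limma.

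Spp1 encodes osteopontin, a secreted phosphoprotein of bile duct cells, macrophages and stellate cells. It had 5.56, 3.24, 3.06 and 5.09 in DDC samples and -6.29 and -2.79 in untreated samples, where it was well above background on 2 of 3 arrays. The groups lay far apart although the untreated samples differed by more than the DDC samples, and the difference was 8.78 (SE 0.81, limma adjusted p = 9.38e-05). Keratins 8 and 18, the pair of filament proteins of simple epithelia, rose together; they and the next 3 genes were chosen after their values were seen. Krt8 was 6.09, 5.08, 6.62 and 6.06 after DDC, against 2.52 and 2.30 without (difference 3.55, SE 0.38, limma adjusted p = 0.000346). Krt18 was 6.44, 5.79, 6.34 and 6.46 after DDC, against 4.47 and 3.90 without (difference 2.08, SE 0.28, limma adjusted p = 0.00195). Krt8 was thus among the brighter probes in DDC samples and no DDC sample came near an untreated one. Tm4sf4 and Tspan8, membrane proteins of the tetraspan type, rose by 3.35 (SE 0.41) and 7.38 (SE 0.85), and Slpi, a secreted protease inhibitor of epithelia, by 6.49 (SE 1.20). Their limma adjusted p-values were 0.0011, 0.000618 and 0.0184.

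**Figure D2:**
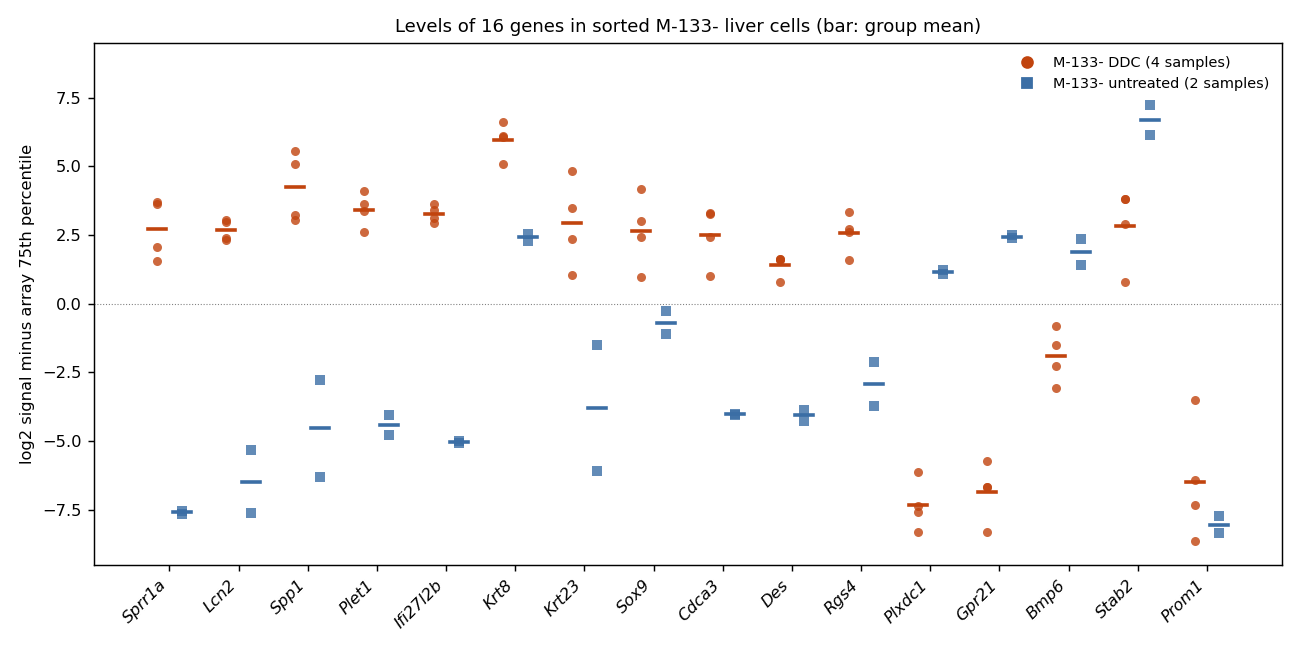
Levels of 16 genes in each M-133- sample (log2 signal minus the array's 75th percentile), with circles for the 4 DDC samples, squares for the 2 untreated samples and bars for group means. The groups do not overlap for 15 of the genes shown, among them Krt8 with 5.08 to 6.62 after DDC and 2.52 and 2.30 untreated. Prom1, the gene of the sort antigen, is the exception, and Stab2 did not pass the test.

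In the list of 25 bile duct epithelial genes, 3 rose (Spp1, Krt23 and Sox9) and none fell, where 0.613% of all genes were called higher. At an unadjusted p under 0.05, 9 were higher and 0 lower, against 1093 higher and 1900 lower of all 23309 genes. In 7 of 25 (28.0%) every DDC sample lay above both untreated samples, against 7.12% of all genes. The count of called genes was 5 without DDC sample 3, 2 with slide as a fixed block, 2 with a replicate block and 1 with only M-133- samples fitted. Over the alternatives Spp1 was called in 19 of 19, Krt23 in 17 and Sox9 in 13. Its median difference was 0.44, against -0.36 over all genes, and it turned to -0.26 under normexp background correction. The mean level of the list was -2.48 to -1.93 in the DDC samples, against -3.73 to -3.60 in the untreated samples. Krt23, a type I keratin, had 3.48, 1.05, 4.84 and 2.35 after DDC and -1.50 and -6.08 without (difference 6.72, SE 1.08, limma adjusted p = 0.00779). Sox9, a transcription factor of duct cells and of the portal edge of the lobule, had 2.43, 0.95, 4.17 and 3.01 after DDC and -1.11 and -0.27 without (difference 3.33, SE 0.64, limma adjusted p = 0.0219). As for every called gene, the groups of both did not overlap, and sample 2 was lowest and sample 3 highest of the DDC samples. The standard duct markers Krt19 and Epcam did not pass. Krt19 was -4.82 to -2.39 in DDC samples and -4.90 and -3.56 in untreated samples, which overlap. Epcam, the epithelial adhesion molecule, was -4.81 to -2.32 in DDC samples and -5.80 and -4.90 in untreated samples, with a difference of 1.96 (SE 0.72) that did not pass (limma adjusted p = 0.243). In M+133+ cells the mean level of Krt19 was 5.93 after DDC and 4.31 in untreated cells, and that of Epcam was 5.62 and 4.84. The part of remaining duct cells in the increases was not tested.

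Inflammatory and acute phase genes formed another group. Among 24 acute phase genes 5 rose and none fell, where 0.613% of all genes were called higher, and the median difference was 1.17. In 12 of 24 (50%) every DDC sample lay above both untreated samples, against 7.12% of all genes. The mean level of the list was 3.20 to 3.87 in DDC samples and 1.51 to 1.90 in untreated samples. Lcn2, lipocalin 2, which binds bacterial siderophores, had 2.34, 2.38, 2.96 and 3.04 after DDC and -7.62 and -5.32 without; it was well above background on 1 of the 3 untreated arrays (difference 9.15, SE 1.02, limma adjusted p = 0.000484). Saa1, the acute phase apolipoprotein serum amyloid A, had 4.91, 4.58, 5.98 and 5.06 after DDC and 1.23 and 1.64 without (difference 3.70, SE 0.73, limma adjusted p = 0.0254). Both genes were high in every DDC sample. Saa2, the near-identical neighbour of Saa1, had 4.58 to 4.84 in DDC samples and 1.50 and 1.32 in untreated samples, yet missed the threshold (limma adjusted p = 0.125). Probes for Saa1 and Saa2 can read each other, so which of them was measured is uncertain.

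The other 3 acute phase genes that rose were Cp, Steap4 and Il1rn. Ceruloplasmin (Cp), a copper-carrying ferroxidase, had 4.99, 3.77, 5.57 and 4.62 after DDC and 1.94 and 1.78 without (difference 2.87, SE 0.41, limma adjusted p = 0.0034). Steap4, a metalloreductase, had 3.66, 2.99, 4.40 and 3.79 after DDC and 0.11 and -0.95 without (limma adjusted p = 0.0364). Il1rn, the antagonist of the interleukin 1 receptor, had -1.58, -0.40, -0.71 and 0.51 after DDC and -2.96 and -7.50 without (limma adjusted p = 0.0466); leaving out untreated sample 2 gave an adjusted p of 0.392, and over the alternatives it was called in 6 of 19. Metallothionein 1 (Mt1) stood at 3.72 to 4.57 in DDC samples and 1.92 and 2.07 in untreated samples, and hepcidin (Hamp) at 4.67 to 5.53 in DDC samples and 6.50 and 4.52 in untreated samples. Neither passed. The acute phase count was 3 without untreated sample 1, 2 without untreated sample 2, 2 without DDC sample 3, and 3 without DDC sample 1 or 4.

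Ubd, a ubiquitin-like protein induced by interferon gamma and tumour necrosis factor, had the largest fitted increase of the named genes. It had 2.70, 2.04, 2.53 and 3.21 after DDC and -7.74 and -8.52 without, where no array was well above background, so it was at least 384-fold higher (limma adjusted p = 0.00792). Without untreated sample 1 its adjusted p was 0.0693, and without untreated sample 2 it was 0.0552. Ifi27l2b and Ifi27l2a, small membrane proteins induced by interferon, rose by 8.32 (SE 0.46, limma adjusted p = 2.18e-07) and 4.09 (SE 0.71, limma adjusted p = 0.0123). Ifi27l2b had 3.63, 2.95, 3.12 and 3.39 in DDC samples and -5.01 and -5.09 in untreated samples, so that both groups were narrow. The 2 genes are close paralogs, and their probes may share signal. In the interferon list, Ifi27l2a alone of its 27 genes passed, and the median was 0.48; without untreated sample 2 its adjusted p was 0.0922. Isg15 stood at 1.78 to 2.41 after DDC and at -1.73 and 0.31 without (limma adjusted p = 0.279).

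Of 27 chemokine and cytokine genes 1 rose, Cxcl14, a chemokine of epithelia and stroma. Cxcl14 had 2.89, 2.89, 2.21 and 2.29 after DDC and -3.83 and -2.02 without (difference 5.49, SE 1.14, limma adjusted p = 0.0345). The call was lost when any 1 of the 6 M-133- samples was left out, and Cxcl14 was called in 10 of 19 alternatives. Ccl2, which draws monocytes, had 3.12, 2.90, 4.84 and 3.88 after DDC, against -2.34 and 2.48 without, and did not pass (limma adjusted p = 0.114). The groups of Ccl2 do not overlap, but the untreated samples lie far apart.

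Cell division genes were another such group. All 24 genes of the mitosis list had a positive difference, against 8736 of all 23309 genes, with a median of 3.77. In 16 of the 24 (66.7%) every DDC sample lay above both untreated samples, against 7.12% of all genes. Called higher were 4, namely Cdca8, Birc5, Cdk1 and Kif20a, against 0.613% of all genes. The mean level of the list was -0.10 to 1.12 in DDC samples and -3.42 to -1.94 in untreated samples. Cdca8 and Birc5 encode borealin and survivin, which guide chromosome segregation in the chromosomal passenger complex. Cdca8 had 2.84, 2.18, 2.31 and 2.58 after DDC and -1.90 and -2.52 without (difference 4.69, SE 0.91, limma adjusted p = 0.0232). Birc5 had 5.74, 4.89, 5.86 and 5.82 after DDC and 3.08 and 0.02 without (difference 4.03, SE 0.74, limma adjusted p = 0.0166). Cdk1, the kinase that drives entry into mitosis, had 0.10, 1.13, -0.21 and -0.75 after DDC and -3.69 and -4.24 without (difference 4.03, SE 0.83, limma adjusted p = 0.0317). Their groups did not overlap, which held for every called gene.

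The promoters of Cdk1, Cdca8 and Birc5, called members of the mitosis list, are shown since these genes moved together, and that of Cdca3, a called division gene outside the list, is set beside them. Mitotic promoters are known for CCAAT boxes, bound by the factor NF-Y, and for the cell cycle homology region TTTGAA, bound by the MuvB complexes that hold such genes silent in resting cells. The windows below are RefSeq promoters on build GRCm38.p6, from 250 bases before the start to 50 bases after it, written along the gene's own strand, with every CCAAT and TTTGAA on either strand in capitals (ATTGG and TTCAAA are the same letters on the other strand). Cdk1 lies on the minus strand at chr10:69352863-69353162, Cdca8 on the minus strand at chr4:124936868-124937167, Birc5 on the plus strand at chr11:117848987-117849286, and Cdca3 on the plus strand at chr6:124829926-124830225.
Cdk1: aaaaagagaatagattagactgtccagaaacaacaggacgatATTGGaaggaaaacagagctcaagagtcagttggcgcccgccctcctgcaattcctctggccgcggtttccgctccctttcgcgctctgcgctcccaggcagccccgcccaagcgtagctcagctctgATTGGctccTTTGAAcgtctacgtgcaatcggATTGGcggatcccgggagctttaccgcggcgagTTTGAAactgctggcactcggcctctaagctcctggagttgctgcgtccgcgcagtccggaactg
Cdca8: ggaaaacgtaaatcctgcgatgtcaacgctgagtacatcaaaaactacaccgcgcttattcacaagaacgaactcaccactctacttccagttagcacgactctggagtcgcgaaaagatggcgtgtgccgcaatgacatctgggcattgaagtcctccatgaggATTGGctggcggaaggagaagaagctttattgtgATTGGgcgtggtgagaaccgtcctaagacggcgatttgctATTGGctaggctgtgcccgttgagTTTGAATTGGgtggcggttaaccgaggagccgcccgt
Birc5: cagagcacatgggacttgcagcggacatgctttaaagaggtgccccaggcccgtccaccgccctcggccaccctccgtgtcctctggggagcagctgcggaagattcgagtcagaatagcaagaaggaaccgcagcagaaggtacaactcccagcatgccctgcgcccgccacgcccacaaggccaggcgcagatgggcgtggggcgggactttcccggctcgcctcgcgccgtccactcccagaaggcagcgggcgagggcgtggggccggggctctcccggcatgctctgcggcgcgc
Cdca3: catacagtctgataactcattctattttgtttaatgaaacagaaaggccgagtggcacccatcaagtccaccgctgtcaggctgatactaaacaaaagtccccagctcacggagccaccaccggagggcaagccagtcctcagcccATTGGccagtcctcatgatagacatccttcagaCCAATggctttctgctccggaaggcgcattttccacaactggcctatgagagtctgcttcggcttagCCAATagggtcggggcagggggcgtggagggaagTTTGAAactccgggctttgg
Cdk1 holds 3 CCAAT boxes and 2 TTTGAA elements. Cdca8 holds 4 CCAAT boxes and 1 TTTGAA, which overlaps a CCAAT box by its last base. The window of Birc5 holds neither. Cdca3 holds 3 CCAAT boxes and 1 TTTGAA. Of the 24 mitosis genes 19 had a window in the table, and 17 of these held CCAAT (89.5%) and 14 held TTTGAA (73.7%). Over all 27025 genes with a window the shares were 41.1% and 20.2%. Among the called genes that rose, 105 had a window, of which 47.6% held CCAAT and 17.1% TTTGAA. Among the genes tested, 13956 had a window, of which 42.2% held CCAAT and 15.9% TTTGAA. A match is a description of the letters and not of a bound site.

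Other division genes outside the list moved with it. Cdca3, a factor for mitotic entry, had 3.31, 1.00, 3.27 and 2.43 after DDC, against -4.05 and -4.01 without (difference 6.53, SE 0.92, limma adjusted p = 0.00297). Cdc25c, the phosphatase that activates Cdk1, had 1.17, 0.18, 1.56 and -0.32 after DDC and -7.15 and -8.34 without, no untreated array being well above background, and was at least 97.9-fold higher (limma adjusted p = 0.0135). Nek2, a centrosome kinase, and Cdkn3, a phosphatase that acts on cyclin-dependent kinases, rose by 6.69 (SE 1.27) and 7.28 (SE 1.55), with limma adjusted p-values of 0.0211 and 0.0386. Mki67, which encodes the proliferation antigen Ki-67, had 3.32, 2.56, 2.68 and 2.57 after DDC and 1.03 and 0.44 without, and narrowly missed (limma adjusted p = 0.0591). Of 22 genes of DNA replication and the G1/S transition none passed in limma, and the median was 1.23. By the unadjusted p, 6 were higher and 1 was lower at 0.05, against 1093 higher and 1900 lower of all 23309 genes. The replication helicase subunit Mcm6 was 3.59 to 3.84 after DDC and 1.94 and 2.57 without (limma adjusted p = 0.112), and Pcna 2.64 to 3.49 after DDC and 3.37 and 3.99 without. The count of 4 mitosis genes was 1 without untreated sample 1, 0 without untreated sample 2 and 2 without DDC sample 1, while the median of the list stayed between 2.32 and 4.12 over the alternatives. Within slide 1 it was 3.04 (1 DDC and 1 untreated array) and within slide 2 it was 4.04 (2 DDC arrays and 1 untreated array).

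**Figure D3:**
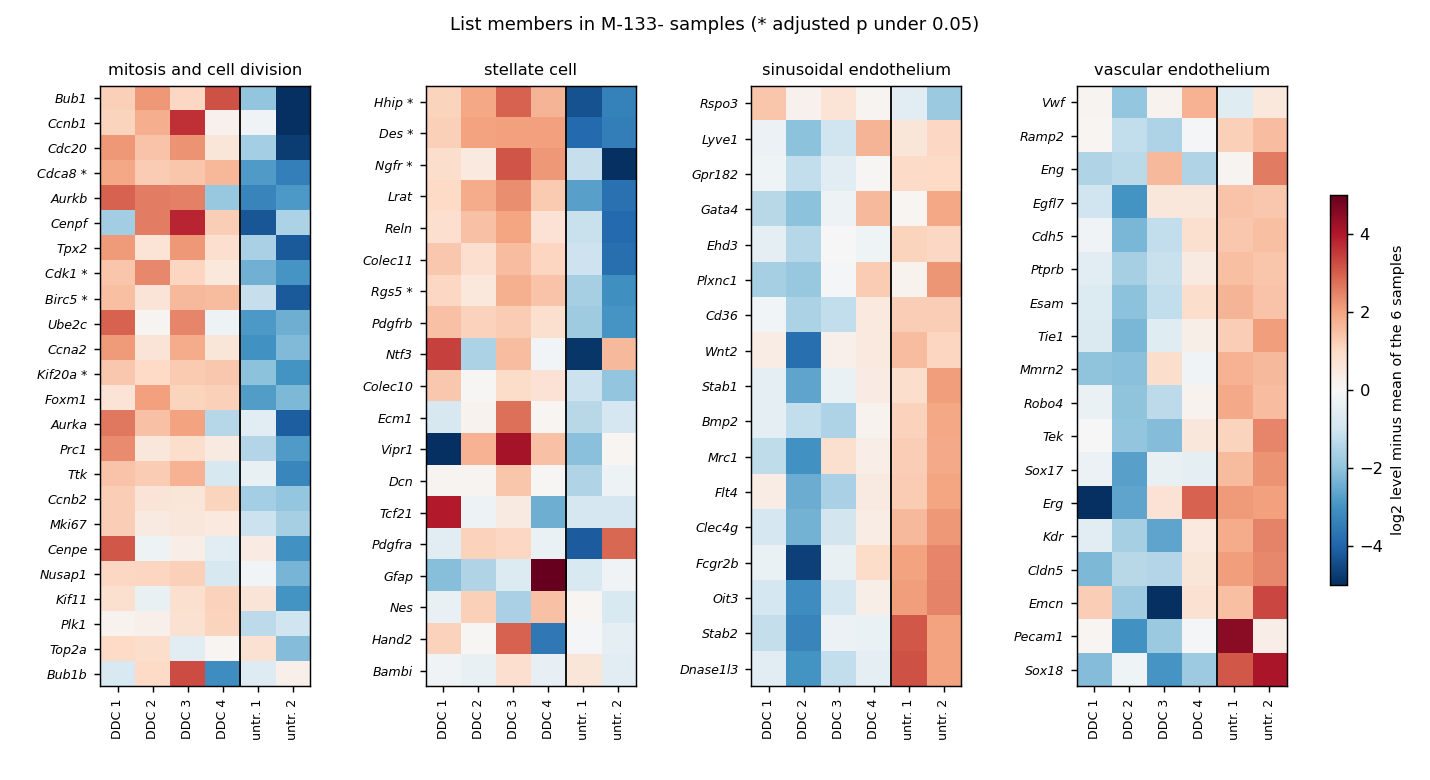
Levels of the members of 4 gene lists in each M-133- sample, each gene given as its log2 level minus its mean over the 6 samples, with colours that saturate at 5 in either direction and genes sorted by their difference (1 stellate cell gene is not drawn). All 24 mitosis genes and 19 of 20 stellate cell genes had a positive difference, and 16 of 17 sinusoidal and 17 of 18 vascular endothelial genes a negative one. Over all 23309 genes, 8736 differences were positive and 14573 negative. Asterisks mark genes at an adjusted p under 0.05.

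Genes of stellate cells and pericytes, the contractile cells around sinusoids and vessels, were higher after DDC. The stellate cell list had a median of 2.35 over 20 genes. In it 4 were called higher (Des, Ngfr, Rgs5 and Hhip) and none lower, where 0.613% of all genes were called higher. Every DDC sample lay above both untreated samples in 12 (60%), against 7.12% of all genes. Desmin (Des), the filament protein of stellate cells and muscle, had 0.79, 1.60, 1.63 and 1.63 after DDC and -4.28 and -3.85 without (difference 5.48, SE 0.97, limma adjusted p = 0.0138). Ngfr, the low-affinity neurotrophin receptor of stellate cells, had 1.24, 0.87, 3.53 and 2.55 after DDC and -0.78 and -5.14 without (difference 5.01, SE 1.06, limma adjusted p = 0.0375). Hhip, which binds and blocks Hedgehog ligands, had -2.27, -1.45, -0.43 and -1.71 after DDC and -7.75 and -6.76 without (difference 5.79, SE 1.05, limma adjusted p = 0.0158). Des had an adjusted p of 0.123 without untreated sample 1 and 0.0602 without untreated sample 2, and Hhip had 0.153 without untreated sample 1. For Ngfr untreated sample 1 lay closer to the DDC samples than to untreated sample 2, and without untreated sample 2 the adjusted p was 0.338.

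Lrat, which esterifies retinol for storage, had 1.79, 2.66, 3.12 and 2.14 after DDC and -1.91 and -2.92 without, and did not pass (limma adjusted p = 0.16). Reln, Colec11 and Pdgfrb also had every DDC sample above both untreated samples and did not pass, with differences of 3.75, 3.60 and 3.53. A list of 18 pericyte and ATP-sensitive potassium channel genes had a median of 2.46 and 4 increases, where 0.613% of all genes were called higher. These were Rgs4 and Rgs5, which switch off G protein signals, Ednra, the endothelin A receptor, and Gucy1b1, a subunit of the guanylate cyclase that senses nitric oxide. Rgs4 had 2.71, 1.60, 3.33 and 2.60 after DDC and -2.12 and -3.72 without (difference 5.48, SE 0.85, limma adjusted p = 0.00602). Ednra rose by 5.82 (SE 1.06), Gucy1b1 by 5.93 (SE 1.15) and Rgs5 by 3.56 (SE 0.75), at limma adjusted p-values of 0.0164, 0.0233 and 0.037. The channel subunits Kcnj8 and Abcc9 had differences of 0.70 and 2.85 and did not pass. Kcnj8 reached 6.78 in untreated sample 1 and -0.51 in untreated sample 2, on either side of the DDC samples at 3.39 to 4.83.

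Of 24 myofibroblast genes tested, all had a positive difference, with a median of 1.38, and Myl9 alone passed; it did not pass without untreated sample 1 or 2 or without DDC sample 1 or 3. Over all 23309 genes, 8736 had a positive difference and 0.613% were called higher. Myl9, the regulatory light chain of smooth muscle myosin, had 3.48, 3.16, 4.91 and 3.45 after DDC and -1.49 and -0.89 without (difference 4.94, SE 1.07, limma adjusted p = 0.0406). Acta2, the smooth muscle actin that marks activated stellate cells, had 5.07, 4.58, 4.99 and 5.02 after DDC and 4.77 and 5.05 without, a difference of 0.00 (SE 0.29). Collagen Col1a1 had 2.11, 4.98, 5.83 and 4.29 after DDC and 1.31 and 3.95 without, with overlap. Tenascin C (Tnc) and periostin (Postn) had differences of 4.25 and 3.26 that did not pass. The counts rest on both untreated samples. Without untreated sample 1 they were 1 for stellate cell genes and 1 for pericyte genes, and without untreated sample 2 they were 1 and 0. Without DDC sample 3 or 4 the stellate cell count was 2, and without DDC sample 1 the pericyte count was 2. The stellate cell median stayed between 2.01 and 2.76 over the alternatives, 2.39 within slide 1 and 2.66 within slide 2. In sorted bulk cells, a larger share of cells of a type and more RNA per cell cannot be told apart.

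Endothelial genes lay lower after DDC in nearly every member, while none passed the test. In the vascular endothelial list, every DDC sample lay below both untreated samples for 15 of 18 genes, and in the sinusoidal list for 13 of 17, against 12.7% of all genes. The medians were -2.56 and -2.23. At an unadjusted p under 0.05, 8 of 18 vascular and 4 of 17 sinusoidal genes were lower, against 1900 of all 23309 genes. The mean level of the vascular list was 0.03 to 2.33 in DDC samples and 3.62 to 3.93 in untreated samples, and that of the sinusoidal list 0.67 to 3.45 in DDC samples and 4.28 to 4.57 in untreated samples. Of the DDC samples, sample 2 was lowest and sample 4 highest in both lists. The medians stayed below 0 in every alternative, between -2.92 and -2.16 for vascular and between -2.70 and -1.61 for sinusoidal genes. In M+133+ cells the same lists had medians of -2.14 and -2.37, and no gene of either list had a called interaction.

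Stab2, the scavenger receptor by which sinusoidal endothelium takes up hyaluronan, had 2.91, 0.81, 3.81 and 3.79 after DDC and 7.24 and 6.15 without (difference -3.87, SE 0.90, limma adjusted p = 0.0576). Dnase1l3, a secreted DNase, had 4.19, 1.73, 3.50 and 4.27 after DDC and 7.91 and 6.74 without (difference -3.91, SE 1.87, limma adjusted p = 0.404). Both stayed bright after DDC, yet no DDC sample reached an untreated one. Sox18, a transcription factor of endothelium, had -2.31, -0.35, -3.10 and -1.96 after DDC and 2.96 and 3.95 without (difference -5.38, SE 1.30, limma adjusted p = 0.0682). Cldn5, the tight junction claudin of vessels, had -0.52, 0.35, 0.25 and 2.33 after DDC and 3.81 and 4.12 without (limma adjusted p = 0.0872). The members that did not follow were Vwf, von Willebrand factor, at -0.24 to 3.43 after DDC and 1.09 and 2.25 without, and Rspo3, the Wnt enhancer of central vein endothelium, at 1.89 to 3.14 after DDC and 1.23 and -0.11 without. The endothelial levels moved opposite to the stellate cell levels in the same samples, and the part of cell shares in either was not tested.

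**Figure D4:**
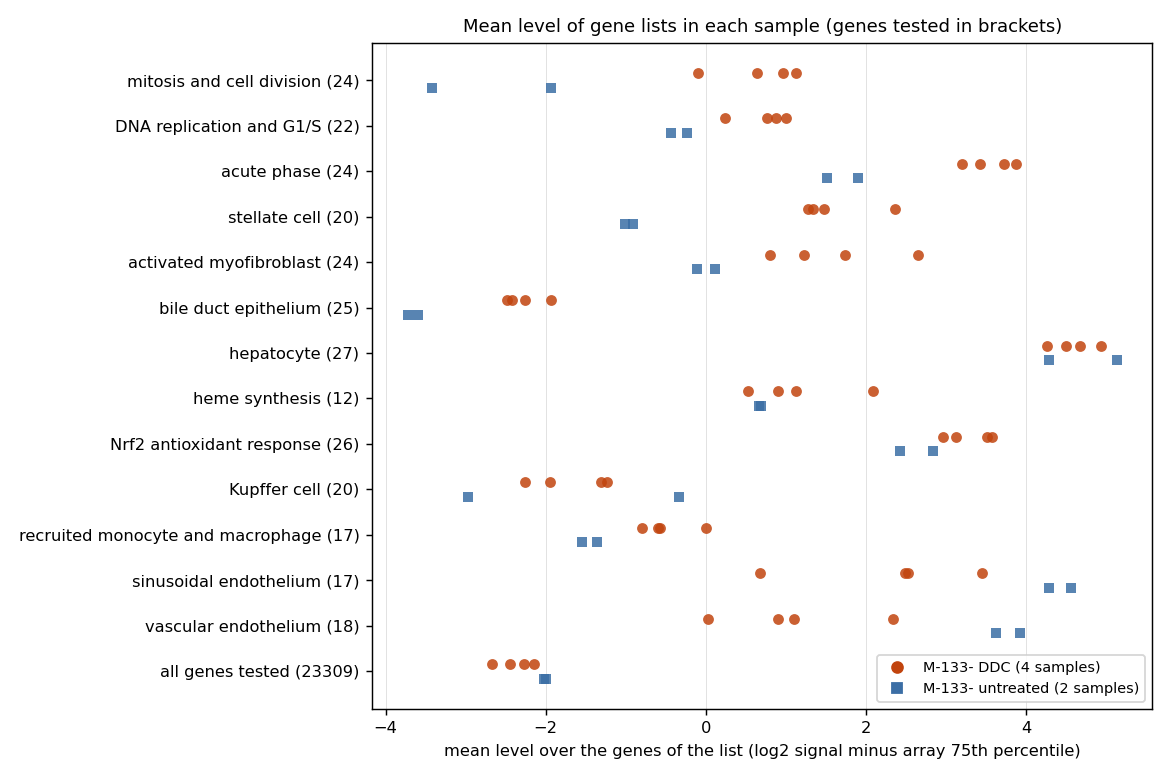
Mean level of 13 gene lists, and of all genes tested, in each M-133- sample, with circles for DDC and squares for untreated samples and the number of genes in brackets. DDC samples lie above untreated samples for mitosis (-0.10 to 1.12 against -3.42 to -1.94) and stellate cell genes, below them for both endothelial lists, and overlap with them for hepatocyte and Kupffer cell genes.

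Among the 94 decreases, a few genes are known from endothelium or from signals it sends. Bmp6, the ligand by which sinusoidal endothelium tells hepatocytes to make hepcidin, had -1.49, -3.08, -2.28 and -0.80 after DDC and 2.35 and 1.39 without (difference -3.79, SE 0.75, limma adjusted p = 0.0254). Hamp itself, as given above, overlapped between groups. Plxdc1, a plexin domain protein of vessels, had -8.30, -7.58, -6.12 and -7.36 after DDC and 1.24 and 1.10 without, and was well above background on no DDC array, which put it at least 192-fold lower (limma adjusted p = 0.000484). Cd209b, a C-type lectin that binds microbial sugars, had -7.64, -7.27, -7.52 and -0.43 after DDC and 1.95 and 2.63 without (difference -8.00, SE 1.60, limma adjusted p = 0.0285). DDC sample 4, the sample with the highest endothelial levels, lay far above the other DDC samples. Fcgrt, the neonatal Fc receptor that recycles IgG and albumin, had 1.51, 0.67, 1.38 and 3.42 after DDC and 5.79 and 4.73 without (limma adjusted p = 0.0473). It was chosen after its values were seen, as were Txnip, Ldhb and Hk1 below.

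The largest fitted decrease of a named gene was that of Gpr21, an orphan G protein-coupled receptor. It had -8.32, -5.74, -6.67 and -6.66 after DDC and 2.38 and 2.50 without (difference -9.29, SE 1.47, limma adjusted p = 0.00703). Sult3a2, a sulfotransferase with close paralogs that its probe may read, was well above background on no DDC array and at least 156-fold lower (limma adjusted p = 0.0232). Its untreated samples were far apart, at 5.17 and -3.45, so that bound rests on sample 1. It was 7.82-fold without untreated sample 1, where the adjusted p was 0.222, and 3092-fold without untreated sample 2. Stox1, a winged-helix factor, Zfp84, a zinc finger protein, and Myo7a, an unconventional myosin, had differences of -7.62 (SE 1.10), -7.25 (SE 1.33) and -7.17 (SE 1.46). Their limma adjusted p-values were 0.00355, 0.0173 and 0.0305. H2-T24, a nonclassical MHC class I gene, Tnfrsf26, of the tumour necrosis factor receptor family, and Mterf1b, of the mitochondrial transcription termination family, had differences of -6.70, -6.10 and -5.92. Rnf222, a RING finger protein, and Fat4, a giant protocadherin, had -5.73 and -5.70. As for every called gene their groups did not overlap, and their limma adjusted p-values ran from 0.0104 to 0.0459. Of 19 alternatives, H2-T24 was called in 15, Tnfrsf26 in 16, Mterf1b in 10, Rnf222 in 8 and Fat4 in 6.

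Myrf and Fyn came next after Myo7a, H2-T24 and Fat4 among the named decreases that were well above background on all 7 arrays. Myrf, a membrane-anchored transcription factor, had -5.64, -4.61, -4.07 and -4.92 after DDC and 1.85 and -0.54 without (difference -5.47, SE 0.85, limma adjusted p = 0.00627). Fyn, a Src family kinase, had -4.69, -4.20, -5.08 and -3.76 after DDC and -0.30 and 1.76 without (limma adjusted p = 0.0232). Other decreases were Acsl1, Hk1, Ldhb and Txnip. Acsl1, which activates long-chain fatty acids, and Hk1, a hexokinase, had differences of -2.79 (SE 0.57) and -2.66 (SE 0.53). Ldhb, a lactate dehydrogenase subunit, and Txnip, an arrestin-like inhibitor of glucose uptake, had -3.60 (SE 0.60) and -3.09 (SE 0.61). In that order their limma adjusted p-values were 0.0305, 0.0254, 0.00912 and 0.0267. Acsl1 was the only called member of 22 fatty acid oxidation genes, whose median was -0.39, and the list had 0 called when either untreated sample or DDC sample 3 or 4 was left out.

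The pathway that DDC blocks showed no called gene. Of 12 heme synthesis genes none passed in limma, 1 was higher at an unadjusted p under 0.05, and the median was 0.26, against -0.36 over all genes. In 4 of 12 (33.3%) every DDC sample lay above both untreated samples, against 7.12% of all genes. In 0 of 12 every DDC sample lay below both, against 12.7% of all genes. Fech, ferrochelatase itself, had 2.47, 2.97, 3.05 and 3.62 after DDC and 2.96 and 2.27 without, which overlap (difference 0.41, SE 0.54, limma adjusted p = 0.832). Alas1, the first and rate-limiting enzyme in liver, had 1.31, 1.20, 2.60 and 0.75 after DDC and -0.27 and 0.30 without. Its groups do not overlap, but the difference of 1.45 (SE 0.66) did not pass (limma adjusted p = 0.366). Uros, which closes the porphyrin ring, had -0.84, -1.17, 5.46 and -1.38 after DDC and -2.02 and -1.60 without, so sample 3 alone was high. Hmox1, the enzyme of heme breakdown, had 2.70, 2.69, 2.79 and 1.68 after DDC and 1.09 and 4.78 without, and the untreated samples spanned the DDC samples. Transferrin receptor (Tfrc) was -1.04 to -0.01 after DDC and 2.05 and 0.86 without (limma adjusted p = 0.174).

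Hepatocyte genes as a whole showed no called change. None of 27 passed in limma, with 1 in each direction by the unadjusted p at 0.05, and the median was -0.07, with a sign that depended on the setting (-0.47 to 0.29). The mean level of the list was 4.26 to 4.93 after DDC and 4.29 to 5.13 without. Transthyretin (Ttr), a carrier of thyroid hormone and retinol, was 2.26 to 4.47 after DDC and 0.85 and 0.46 without (limma adjusted p = 0.0902). Tdo2, which starts tryptophan breakdown, was 4.02 to 5.05 after DDC and 7.61 and 4.57 without. None of 27 xenobiotic cytochrome P450 genes and none of 26 Nrf2 antioxidant genes passed in limma, with medians of 0.35 and 0.75. At an unadjusted p under 0.05, 4 of the P450 genes were higher, and of the Nrf2 genes 7 were higher and 1 was lower. Over all 23309 genes, 1093 were higher and 1900 lower by that measure. Every DDC sample lay above both untreated samples in 8 of the 26 Nrf2 genes (30.8%), against 7.12% of all genes. For the P450 genes this held in 2 of 27 (7.41%). Cyp2b10, a target of the xenobiotic receptor CAR, had 1.61, 1.09, -0.87 and 0.23 after DDC and -1.49 and -3.24 without (limma adjusted p = 0.135). Gstm3, a glutathione transferase, was 5.55 to 6.91 after DDC and 4.93 and 2.96 without (limma adjusted p = 0.126), and Srxn1, sulfiredoxin, 4.46 to 5.28 after DDC and 3.20 and 3.07 without (limma adjusted p = 0.124). For each of these 3 genes the groups did not overlap.

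Of 23 bile acid genes 1 passed. Slc51b, a subunit of the transporter that carries bile acids out across the basolateral membrane, had 0.64, 1.42, 0.11 and 0.06 after DDC and -3.06 and -4.74 without (difference 4.46, SE 0.84, limma adjusted p = 0.0204). Its adjusted p was 0.0588 without untreated sample 1 and 0.162 without untreated sample 2. Cyp8b1, the 12-alpha-hydroxylase that makes cholic acid, was well above background on no DDC array, at -8.59 to -8.06, and stood at -3.36 and -5.55 in untreated samples, which puts it at least 3.91-fold lower (1.83-fold without untreated sample 1 and 8.37-fold without untreated sample 2). Its adjusted p by limma was 0.0523, just above the threshold. Abcb4, the phospholipid exporter of the canaliculus, was 3.44 to 4.91 after DDC and 2.54 and 1.56 without (limma adjusted p = 0.223). The median of the list was -0.17.

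Of 15 oncofetal liver genes 3 rose, where 0.613% of all genes were called higher, and the median was -0.59. The count was 0 without untreated sample 1, and 1 both without untreated sample 2 and with only M-133- samples fitted. Alpha-fetoprotein (Afp), the fetal serum protein of liver, had 2.90, 1.06, 0.82 and 0.02 after DDC and -7.72 and -8.21 without; with no untreated array well above background it was at least 143-fold higher (limma adjusted p = 0.0158). Without untreated sample 1 its adjusted p was 0.106, and without untreated sample 2 it was 0.083. Tff3, a trefoil peptide of mucous epithelia, had 1.82, 0.37 and 2.88 in DDC samples 1 to 3, its spot on the array of sample 4 having been left out, and -4.86 and -5.21 in untreated samples (limma adjusted p = 0.0345). Ly6d, a small anchored surface protein, rose by 4.86 (SE 0.79, limma adjusted p = 0.00792). Other genes of this list did not pass, and 8 of the 15 had a negative difference. H19 was -5.82 to 0.96 after DDC and -4.75 and -5.19 without, a difference of 2.64. Igf2 was -8.18 to -4.04 after DDC and -4.23 and -2.03 without, a difference of -2.52. Both had overlap.

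Of 35 growth factor and receptor genes 3 rose, where 0.613% of all genes were called higher, and the median was -0.35. The count was 2 without untreated sample 1, 1 without untreated sample 2 and 0 with only M-133- samples fitted. Tnfrsf12a, the receptor of the cytokine TWEAK, which drives the ductular reaction in mice, had 3.21, 1.92, 1.83 and 2.95 after DDC and -1.24 and -2.62 without (difference 4.41, SE 0.67, limma adjusted p = 0.00548). Its ligand did not pass, and the other members that rose were Fgfr2 and Pdgfa. Fgfr2, a fibroblast growth factor receptor, had 3.88, 3.92, 3.66 and 3.77 after DDC and 1.54 and -0.63 without (limma adjusted p = 0.0125). Pdgfa, a ligand of the platelet-derived growth factor receptors of mesenchyme, had 3.63, 3.32, 3.40 and 2.80 after DDC and 0.23 and 0.93 without (limma adjusted p = 0.00781). The DDC samples of both genes lay close together and above the untreated ones. Hgf, the ligand of Met, was 3.68 to 5.40 after DDC and 1.62 and 3.32 without, and did not pass.

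Lama1 was the only called gene of 35 matrix and protease genes. It encodes laminin alpha 1 of basement membranes, and it had -0.29, 1.96, 1.34 and -0.64 after DDC and -7.41 and -8.04 without, at least 94.2-fold higher (limma adjusted p = 0.000484). Hs3st3a1, which adds sulfate to heparan sulfate chains, had 1.10, 0.41, 2.77 and 0.24 after DDC and -7.60 and -8.19 without, at least 137-fold higher (limma adjusted p = 9.38e-05). Osbpl3, an oxysterol-binding protein, had 1.63, 0.08, -0.37 and 0.69 after DDC and -7.03 and -8.09 without, at least 88.9-fold higher (limma adjusted p = 0.000317). None of the 3 was well above background on any untreated array. Tnfrsf21, death receptor 6, rose by 7.96 (SE 0.95, limma adjusted p = 0.000819). Bex2, a small adaptor protein known from neurons, had -0.62, -0.19, 0.86 and 1.56 after DDC and -7.51 and -6.47 without, at least 80.8-fold higher (limma adjusted p = 0.00911). Its relatives Bex1 and Bex4, named after their values were seen, rose by 6.53 (SE 0.95) and 4.71 (SE 0.97), with limma adjusted p-values of 0.00396 and 0.0321. The inducible heat shock protein Hspa1a and the early response factor Egr2 were the 2 increases among 26 immediate early and heat shock genes, by 3.83 (SE 0.75) and 2.39 (SE 0.41), with limma adjusted p-values of 0.0254 and 0.0122. Without untreated sample 2 neither passed, and without DDC sample 3 the list had 1 increase. Tbx20, Epha3 and Adra2a, a transcription factor, an ephrin receptor and an adrenergic receptor also picked after their values were seen, rose by 6.20, 6.01 and 5.05.

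Leukocyte lists held few called genes, where 0.613% of all genes were called higher and 0.403% lower. None of 20 Kupffer cell genes passed in limma, and 0 did at an unadjusted p under 0.05. The mean level of that list was -2.26 to -1.24 after DDC, inside the span of the untreated samples at -0.33 and -2.97. Clec4f, a lectin of Kupffer cells, was -2.97 to -0.50 after DDC and 0.45 and -2.52 without. Of 17 genes of recruited monocytes and macrophages 3 rose, Spp1, Plac8 and Lgals3, each also known from epithelia, and the median was -0.03; without untreated sample 1 the count was 1. Lgals3, galectin 3, had 2.83, 1.49, 2.83 and 3.27 after DDC and -5.39 and -4.17 without (limma adjusted p = 0.00911). Plac8, a cysteine-rich protein, had 4.74, 4.07, 4.79 and 4.30 after DDC and -0.03 and 1.33 without (limma adjusted p = 0.00297). Among 12 B cell genes Blk, a Src family kinase, fell by 4.60 (SE 0.88, limma adjusted p = 0.0212), while Cd79a, of the B cell receptor, was at -6.87 to -4.85 after DDC and -6.65 and -5.75 without. Car1, carbonic anhydrase 1, of the erythroid and platelet list, fell by 3.35 (SE 0.75, limma adjusted p = 0.0493). Blk did not pass when either untreated sample was left out, and Car1 did not pass when any of the 6 samples was. In the neutrophil list Lcn2 alone passed. No gene of the T and NK cell list or of the dendritic cell and MHC class II list did.

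The same feeding was set against the M+133+ cells, which have their own untreated samples. The leading numbers of the array titles recur in both sorts, and whether they mark a mouse shared between them is not given in the sources used here. There 34 genes were higher after DDC (0.146%) and 22 lower (0.0944%), and 2 of the 237 genes were called in both sorts. The test of whether the difference itself differed between the sorts, the interaction, called 60 genes (0.257%), of which 46 were more positive (0.197%) and 14 more negative (0.0601%) in M-133- cells. With the title number as a random block it called 86, among them all 60. Of the 237 genes, 49 had a called interaction and 188 did not, so for most of them a difference between the sorts was not shown. The interaction of Plet1 was 8.27 (SE 0.52, limma adjusted p = 2.51e-06). In M+133+ cells Plet1 averaged 4.99 after DDC and 5.44 in untreated cells. The same held for Spp1, whose interaction was 8.78 (SE 1.04, limma adjusted p = 0.00206) and whose M+133+ means were 5.91 after DDC and 5.91 in untreated cells. Krt8 averaged 6.25 after DDC and 5.65 in untreated M+133+ cells, with an interaction of 2.96 (limma adjusted p = 0.0235). These genes were bright in M+133+ cells of both treatments, and in M-133- cells after DDC.

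Lama1 and Hs3st3a1 followed another pattern. Both were at the floor in M+133+ cells, with means of -8.46 and -8.36 after DDC and of -7.63 and -8.92 in untreated cells, and their interactions were 9.15 and 8.47 (limma adjusted p = 0.00437 and 0.00388). Bex2 had the largest positive interaction, 9.60 (limma adjusted p = 0.023), and Osbpl3 had 9.09 (limma adjusted p = 0.00206). The stellate and pericyte genes Des, Rgs4, Rgs5 and Gucy1b1 had interactions of 6.61, 5.71, 5.45 and 8.18, with limma adjusted p-values from 0.036 to 0.044. The most negative were Chil4 and Chil3, chitinase-like proteins that can share probe signal, at -10.35 and -9.92. Both rose in M+133+ cells, where Chil3 averaged 2.73 after DDC and -5.16 in untreated cells, while in M-133- cells Chil3 was -8.43 to -5.84 after DDC and -5.83 and -4.43 untreated. Plxdc1 had -9.17 (limma adjusted p = 0.00437). No mitosis gene had a called interaction, and that list had a median of 2.82 in M+133+ cells, where 3 of its genes rose.

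**Figure D5:**
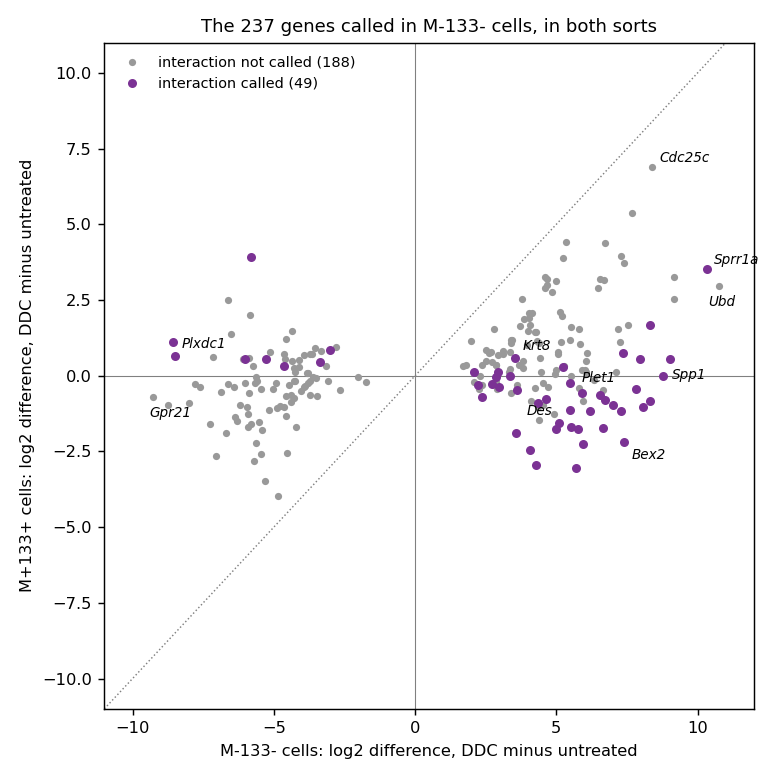
Log2 difference (DDC minus untreated) of the 237 genes called in M-133- cells, in M-133- cells on the x axis and in M+133+ cells on the y axis, with the 49 genes whose interaction was called in purple, the 188 others in grey and a dotted line where both are equal. Genes were chosen on the x axis, so their spread along it is a result of that choice. Plet1 and Spp1 lie near 0 on the y axis, and Cdc25c lies near the dotted line.

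The authors' deposited table gives fold changes and false discovery rates for the same comparison. At a false discovery rate under 5%, the authors' deposited table holds 65 probes higher after DDC and 3 lower. Over 23203 genes the log2 of its fold correlated at 0.96 with the differences given here. For all 237 genes the sign in the authors' deposited table was the same. That table is of the same samples, so the match is not independent support. The number of decreases is where the counts differ most. Most of the called genes described with values above miss 5% there, and all such decreases do. Plxdc1 came nearest of these decreases at 5.37%, while Gpr21 stood at 11.26% and Bmp6 at 15.52%. Of the increases, Spp1 stood at 7.04%, Des at 5.64%, Saa1 at 6.5%, Krt18 at 11.26% and Sox9 at 14.21%. The 4 called mitosis genes stood at 9.67% to 9.87%. Among the genes under 5% were Sprr1a, Plet1 and Ifi27l2b (each 0%) and Krt8 (4.51%).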

How the data were processed

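Expression was measured on 1-colour Agilent mouse arrays. RNA of sorted cells was amplified as cDNA and labelled with Cy3, per the labels' protocols. The deposited files hold, per spot, an intensity from which Feature Extraction 10.5.1.1 had taken the background (per the file headers), with no step between arrays. The authors' deposited table gives a signed linear fold change, treated here as a score, and a false discovery rate in percent, likewise a score. The submitters' processing notes name limma, and how that table was made is not given in the sources used here.

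The log2 processed signal had the array's 75th percentile subtracted. Spots marked as non-uniform or outlying were left out (37 genes tested lack a value), and repeat spots, then repeat arrays, were averaged. Of 41174 probes, 32831 matched a RefSeq gene of GRCm38.p6 (26690 by accession, 5189 by symbol, 952 by synonym) and 8343 kept the file's name. Probes entered if in 1 group or more a share of 0.5 or more of samples was well above background, and the brightest probe stood for its gene. All 14 samples were fitted together with limma 3.58.1 in R 4.3.3 (moderated variance with intensity trend, two-sided), with calls at 0.05 after Benjamini-Hochberg adjustment. SE is the moderated standard error (median 0.99). The method was tested on simulated data. P-values set a difference against a spread estimated over all 14 samples, of which 2 are M-133- untreated.

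Members and the 41 gene lists (876 genes, 842 tested, 38 called) were chosen with earlier results of these data known. Named genes were Prom1, the 12 largest increases and decreases among called genes with groups apart, the 5 largest among genes above background on all 7 arrays (clone-like names left out of both), up to 4 called or 3 uncalled members of a list, the 3 largest interactions per direction, other members of described lists, and genes said to be chosen after their values were seen. The alternatives changed the normalization, background correction, filter, probe choice, blocks, repeat arrays and samples.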

Additional observations from a re-analysis of the deposited data

Results flagged for a closer look

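Among 4 DDC samples, 14 of the 173 named genes had a sample whose gap to the nearest other was too large a part of the whole range by Dixon's test at 95%, which chance gives in about 1 of 20 genes. DDC sample 3 stood high for Uros (5.46), Nr0b2 (3.62), Osgin1 (4.88) and Kcnj8 (4.83), and low for Cx3cl1 (-1.61). DDC sample 4 stood high for Cd209b (-0.43), and low for Aurkb (-5.95) and Hmox1 (1.68). DDC sample 2 stood high for Cd163 (-1.43), and low for Birc5 (4.89), Kif20a (1.70) and Acta2 (4.58). DDC sample 1 stood high for Mki67 (3.32) and low for Des (0.79).

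A called interaction was found for 26 named genes, Des again among them, that is, a log2 difference between DDC and untreated that was not the same in the M-133- and M+133+ sorts. Those more positive in M-133- cells were Bex2 (9.60), Lama1 (9.15), Osbpl3 (9.09), Spp1 (8.78), Hs3st3a1 (8.47), Plet1 (8.27), Gucy1b1 (8.18), Krt23 (7.52), Tnfrsf21 (7.39), Tbx20 (7.35), Bex1 (7.16), Sprr1a (6.81), Ifi27l2b (6.65), Tspan8 (6.63), Des (6.61), Rgs4 (5.71), Rgs5 (5.45), Tm4sf4 (3.35), Egr2 (3.09), Pdgfa (3.00), Krt8 (2.96), Cp (2.92) and Krt18 (1.95). Those more negative in M-133- cells were Plxdc1 (-9.17), Chil3 (-9.92) and Chil4 (-10.35).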

How the results depend on the processing

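All 237 called genes kept their direction under the 19 alternatives wherever they had a value, and no named call reversed. Leaving out a sample could not turn a direction, since the groups of these genes do not overlap. Against 237 calls, there were 38 with only M-133- samples fitted, 144 with slide as a fixed block, and 574 with slide as a random block, a fit that counts repeat arrays separately. Fitted with a replicate block the count was 115. Between the groups, the deviations of samples 1 and 2 from their mean correlated at 0.05 across genes. That is a single contrast per group, so it cannot decide whether equal numbers pair samples. Leaving out 1 sample gave 73 to 282. Calls split into 111 higher and 158 lower under normexp, 164 and 56 under quantile normalization, 137 and 136 where the probes of each gene were averaged, 168 and 169 with the first repeat array alone, 83 and 32 with the replicate block, 61 and 12 without untreated sample 1, 77 and 164 without untreated sample 2, and 134 and 148 without DDC sample 2. Against 60 interactions, there were 38 under normexp, 37 without an intensity trend, 11 with slide fixed, 118 with slide random and 24 with the replicate block, and 34 to 105 with 1 sample left out. Of 78 named called genes, 23 stayed called with only M-133- samples, 28 without untreated sample 1 and 32 without untreated sample 2. The cause of these shifts was not tested. Within slide 2, 233 of the called genes kept their direction. Within slide 1 all 237 did. That was fixed in advance, since it sets 1 DDC sample against 1 untreated sample of groups that do not overlap. Probes near background give bounds only, and 2 untreated samples limit every comparison.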
